A study of Mus musculus with 6 samples.

Results

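The collagen genes of the mouse femur were followed after focal radiation. A row of the count table was taken as a collagen gene when its symbol had the form of a collagen alpha chain (Col, a type number, a, a chain number) and its biotype was protein coding, which gave 44 of 43346 rows. No measured value entered that choice. The 44 genes were sorted by the structure their proteins form into 11 fibrillar, 8 basement membrane, 3 network and 9 fibril-associated collagens and 13 others, the last being beaded filament, anchoring, membrane-bound and unclassified chains. The animals were C57BL/6 mice, an inbred strain, 4 months old and with no genetic change named. On day 0 the right femur received 24 Gy of X-rays at 6.6 Gy per minute, aimed by imaging at 5 mm of its distal metaphysis, the trabecular end of the shaft. The left femur of the mice got no radiation and is the control, so both groups come from animals that carried a radiated leg. Pieces of metaphysis cut from below the growth plate, with muscle removed and no step to remove marrow stated, were taken on day 21, ahead of bone loss that the study saw on day 28. RNA-seq of 3 radiated and 3 non-radiated pieces therefore asks how collagen transcripts stood before that loss.

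Collagens are the main structural proteins of the matrix outside cells, and each molecule is a helix wound from alpha chains whose sequence repeats glycine at a fixed spacing. Fibrillar collagens assemble into cables, of which type I makes up most of the organic matrix of bone and type II that of cartilage. Type IV builds the sheets under endothelium and around fat and muscle cells, network collagens such as type X and type VIII form lattices, and fibril-associated collagens sit on the surface of fibrils. In long bones, osteoblasts are the main source of type I collagen, and growth plate chondrocytes make types II, IX, X and XI.

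Gene counts summed to between 34034251 and 48708383 per library, and collagen genes held 233257 to 592155 of them. Library NR2 stood apart from the others, since 32.9% of its counts lay in the single row AY036118, and it was also low in cartilage genes. The libraries are called NR1, NR2 and NR3 (non-radiated) and R1, R2 and R3 (radiated). The summed level of 10 chondrocyte markers was 107 CPM in that library, against 241 and 207 CPM in libraries NR1 and NR3. CPM is a count relative to the size of its library, here scaled by the trimmed mean of M-values (TMM). Values of single libraries are given in the order NR1, NR2, NR3 for the control femurs and R1, R2, R3 for the radiated femurs. The radiated libraries differed in skeletal muscle RNA, with summed levels of 12 muscle markers of 1801, 5538 and 559 CPM in libraries R1, R2 and R3, against 423 to 790.4 CPM in the non-radiated ones. None of the 12 muscle markers was called when only the group was fitted by edgeR, and 10 were called higher once the library number entered as a replicate block. Markers of bone-forming cells and osteocytes were present in every library, at 1222 to 1803 CPM in the non-radiated and 1112 to 1439.5 CPM in the radiated libraries for 10 genes. The lowest non-radiated sum was that of NR2 and lay inside the radiated range, while NR1 and NR3 were at 1803 and 1786 CPM. No source states that the libraries of a group come from separate animals, so p-values measure the spread between these samples.

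Of the 44 collagen genes 41 passed the filter on low counts, and 14 differed between the groups at a Benjamini-Hochberg adjusted p under 0.05. That p came from the quasi-likelihood test of edgeR and was adjusted over 18757 genes. The share of all tested genes called in this way was 7.8%. Of the collagen genes, 5 fell in radiated femur (Col11a2, Col13a1, Col24a1, Col22a1 and Col1a1), beside a background of 3.24% called lower, and 9 rose (Col6a6, Col8a1, Col4a1, Col4a2, Col18a1, Col12a1, Col5a3, Col16a1 and Col6a1), beside 4.56% called higher. Radiated and non-radiated levels were fully separate for 23 of the 41 genes, against 25.9% of all tested genes, of which 6 genes were lower and 17 higher (11.5% and 14.4% of all tested genes). The 14 called genes were among these. Over the 41 genes the median log2 fold change was 0.18, and over all genes tested it was 0.00.

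Both groups carry the numbers 1 to 3, and libraries of equal number deviated together from their group means, so the number was also fitted as a block. The labels do not say that libraries of equal number are legs of one mouse, and a pair here means only an equal number. With that block 10 collagen genes were lower and 11 higher, where 8.9% of all tested genes were called (3.39% lower and 5.51% higher). The 5 lower genes that the block added to the group fit were Col10a1, Col11a1, Col14a1, Col1a2 and Col5a2, and the 2 higher ones were Col3a1 and Col8a2. Leaving out library NR2 also gave 10 lower genes, and 7 higher, with 4.22% of all genes called, and 9 of those 10 were also among the 10 found with the block. Leaving out library R1, after which 3.99% of all genes were called, gave 4 lower and 6 higher, and scaling by library totals alone, with 5.33% called, gave 4 lower and 10 higher.  Col18a1, Col4a1, Col4a2, Col11a2, Col24a1, Col5a3 and Col8a1 were called in each of the 16 fits run (the group fit and 15 alternatives).

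**Figure D1:**
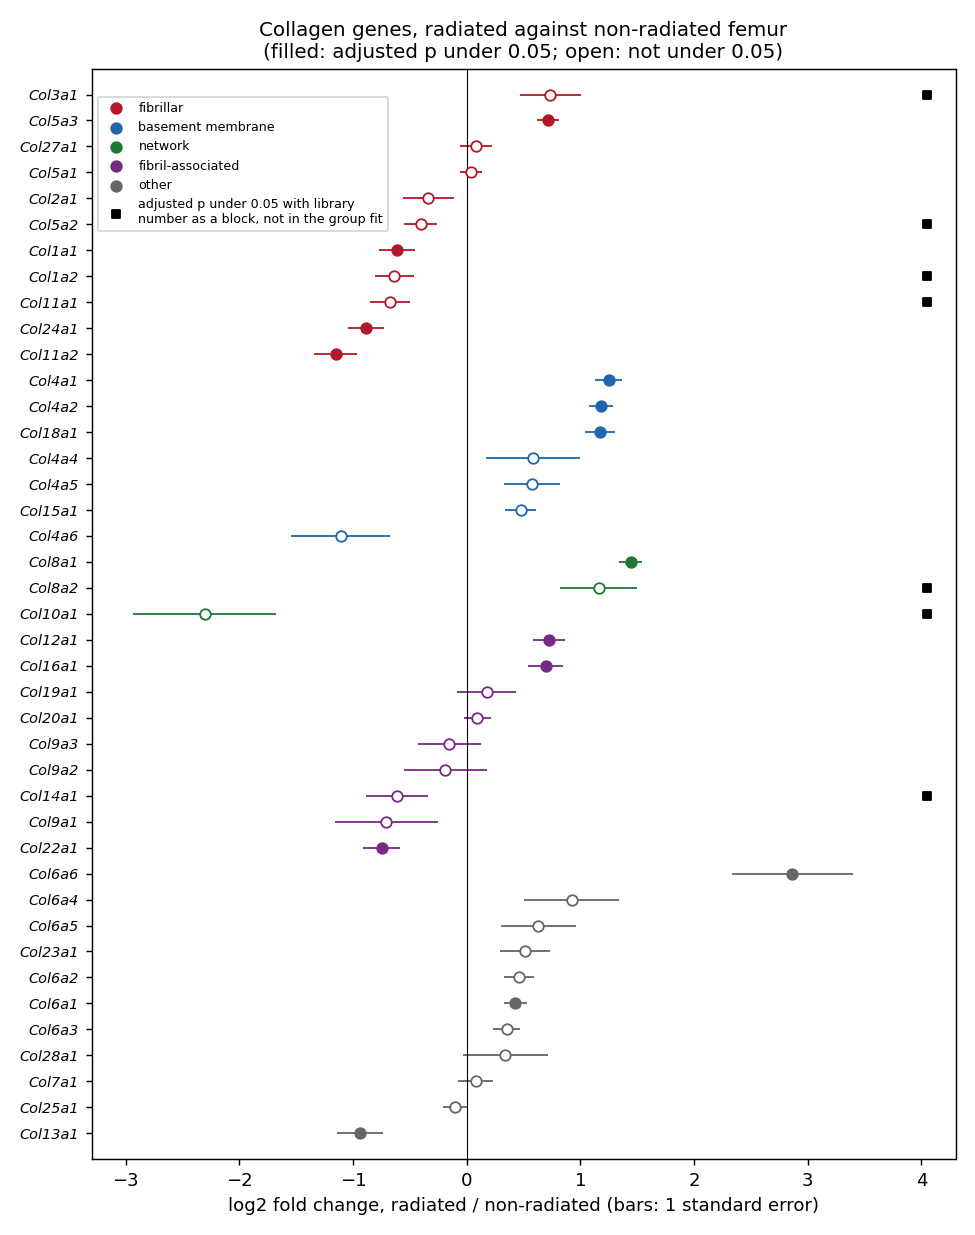
Log2 fold change (x axis, radiated over non-radiated) of the 41 tested collagen genes (y axis), coloured by class, with 1 standard error as bars. Filled points had an adjusted p under 0.05 (14 genes), open points did not, and black squares mark the 7 genes that passed with the library number as a block and not in the group fit. Basement membrane collagens lie mostly to the right of 0, with Col4a6 to the left, and 7 of the 11 fibrillar collagens lie to the left.

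Type I collagen dominated the collagen transcripts. Col1a1 and Col1a2, whose chains join in type I collagen, held 81.7% to 84.1% of collagen counts in the non-radiated libraries and 72.0% to 77.0% in the radiated ones, with no overlap between the groups. Per kilobase of the gene length in the table, Col1a1 was at 797 CPM per kb in the non-radiated and 521 CPM per kb in the radiated group, and Col1a2 at 396 CPM per kb in the non-radiated and 255 CPM per kb in the radiated group. They ranked 1 and 2 among the 44 genes on that scale, followed by Col5a2, Col3a1, Col11a1 and Col11a2.

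Col1a1 (ENSMUSG00000001506, chromosome 11, 94936224 to 94953042 of build mm10, as are all positions here) was at 5435, 4079 and 6185 CPM in control femurs and 3767, 2984 and 3507 CPM in radiated femurs. The radiated libraries all lay below the lowest non-radiated one, which was NR2. The difference was 1.53-fold (edgeR adjusted p 0.0470, log2 fold change -0.61 with SE 0.16), and it was lower in all 3 pairs, at log2 differences of -0.53, -0.45 and -0.82. Its call rested on single libraries. The adjusted p was 0.150 with NR1 left out and 0.104 with NR3 left out. With R1, R2 or R3 left out it was 0.0884, 0.111 and 0.0786. It was 0.259 when libraries were scaled by their totals alone and 0.0570 by totals without AY036118 and Gm26917. With the muscle covariate it was 0.215 (log2 fold change -0.42). That fit has the mean log2 CPM of the 12 muscle markers in each library as a term. The muscle marker sums of R1 and R2 were above those of all control libraries, and that of NR2 was the highest control. The muscle term is thus partly tied to the group and to NR2, and the fit cannot separate them. Without library NR2 the adjusted p of Col1a1 was 0.0171. Col1a2 (ENSMUSG00000029661, chromosome 6, 4504814 to 4541543) was at 5222, 3627 and 5566 CPM in control femurs and 3539, 2655 and 3084 CPM in radiated femurs. These groups did not overlap either, and the gene missed the threshold (edgeR adjusted p 0.0535, log2 fold change -0.64 with SE 0.17) but passed it with the replicate block (adjusted p 0.00947) and with NR2 left out (0.0157). With the muscle covariate its adjusted p was 0.248. The 10 osteoblast and osteocyte markers had 9 negative fold changes with a median of -0.44, and 2 of them, Ifitm5 and Phex, fell. With the replicate block 4 were called lower, Bglap2 and Ibsp being added (adjusted p 0.00534 and 0.0315). The part of bone-forming cells in the type I result was not tested, and in bulk tissue fewer cells of a type and less RNA per cell cannot be told apart.

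The share of all collagen genes in the counts, with AY036118 and Gm26917 left out of the total, was 1.46, 1.02 and 1.57% in the control femurs and 1.10, 0.880 and 0.985% in the radiated femurs. It was lower in the radiated library of each pair, while across groups library NR2 lay below library R1. The means were 1.35% ± 0.287 and 0.988% ± 0.108 (SD, n = 3 each), a difference within the spread of these samples (two-sided exact permutation p 0.2 over 20 labelings, where 0.1 is the smallest possible). The difference was -0.361 percentage points, -0.237 with all gene counts in the total, and between -0.524 (NR2 left out) and -0.253 (NR3 left out) without single libraries.

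Among the other fibrillar collagens, the sharpest fall was that of Col11a2 (ENSMUSG00000024330, chromosome 17, 34039437 to 34066685), a chain of the type XI collagen found in the core of cartilage fibrils and also in bone. It was at 213, 149 and 237 CPM in control femurs and 108, 69.6 and 91.9 CPM in radiated femurs. All radiated values lay below all non-radiated ones, and the level was 2.22-fold lower (edgeR adjusted p 0.00600, log2 fold change -1.15 with SE 0.19). Its partner chain Col11a1 (ENSMUSG00000027966, chromosome 3, 114030540 to 114220718) was at 310.0, 193 and 282 CPM in control femurs and 193, 132 and 167 CPM in radiated femurs. Here library R1 lay just above library NR2, so the groups overlapped, and the test was missed (edgeR adjusted p 0.0512, log2 fold change -0.68 with SE 0.18) but passed with the replicate block (adjusted p 0.000552), the 3 pairs differing by -0.68, -0.55 and -0.76. With NR2 left out the adjusted p was 0.0115, and with the muscle covariate 0.266.

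Col24a1 (ENSMUSG00000028197, chromosome 3, 145292472 to 145552011), a minor fibrillar chain known from developing bone, was at 29.7, 21.7 and 31.6 CPM in control femurs and 17.9, 13.3 and 14.0 CPM in radiated femurs. It fell 1.85-fold with no overlap (edgeR adjusted p 0.00872, log2 fold change -0.89 with SE 0.15). Col5a2, a type V chain that joins type I fibrils, was at 328, 231 and 332 CPM in control femurs and 266, 201 and 206 CPM in radiated femurs. Library R1 lay above library NR2, and the gene passed with the block but not in the group fit (edgeR adjusted p 0.145, log2 fold change -0.41 with SE 0.15, with the block 0.0338). With NR2 left out its adjusted p was 0.0302. Col2a1, the type II chain of cartilage, was at 146, 73.1 and 123 CPM in control femurs and 101, 70.9 and 100.2 CPM in radiated femurs, and its groups overlapped (edgeR adjusted p 0.446, log2 fold change -0.34 with SE 0.22). With the muscle covariate its log2 fold change was 0.00, where it was -0.58 without library NR2.

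1 fibrillar collagen rose. Col5a3 (ENSMUSG00000004098, chromosome 9, 20770050 to 20815067), the third type V chain, was at 28.1, 22.8 and 29.7 CPM in control femurs and 46.0, 43.3 and 43.1 CPM in radiated femurs. All radiated values were higher than all non-radiated ones, and the gene rose 1.64-fold (edgeR adjusted p 0.00226, log2 fold change 0.71 with SE 0.10). Col3a1, the main chain of fibres in vessels, skin and loose connective tissue, was at 249.8, 195 and 149 CPM in control femurs and 339, 447 and 201 CPM in radiated femurs. Library R3 lay between the non-radiated values, library R2 was highest, and the fit with the block passed where the group fit did not (edgeR adjusted p 0.139, log2 fold change 0.74 with SE 0.27, with the block 0.0169). The adjusted p was 0.0175 with R3 left out and 0.00053 under library totals alone. The order of the radiated libraries for Col3a1 was that of their muscle markers, and with the muscle covariate its log2 fold change was 0.19 (adjusted p 0.723). The part of muscle tissue in this difference was not tested. Col5a1, at 135, 108 and 143 CPM without radiation and 135, 137 and 124 CPM with it, and Col27a1, at 38.6, 29.2 and 39.8 CPM without radiation and 39.9, 31.0 and 43.0 CPM with it, had overlapping groups and log2 fold changes of 0.04 and 0.08. Of the 11 fibrillar genes 3 fell, 1 rose and 7 were not called. Their median log2 fold change was -0.41.

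**Figure D2:**
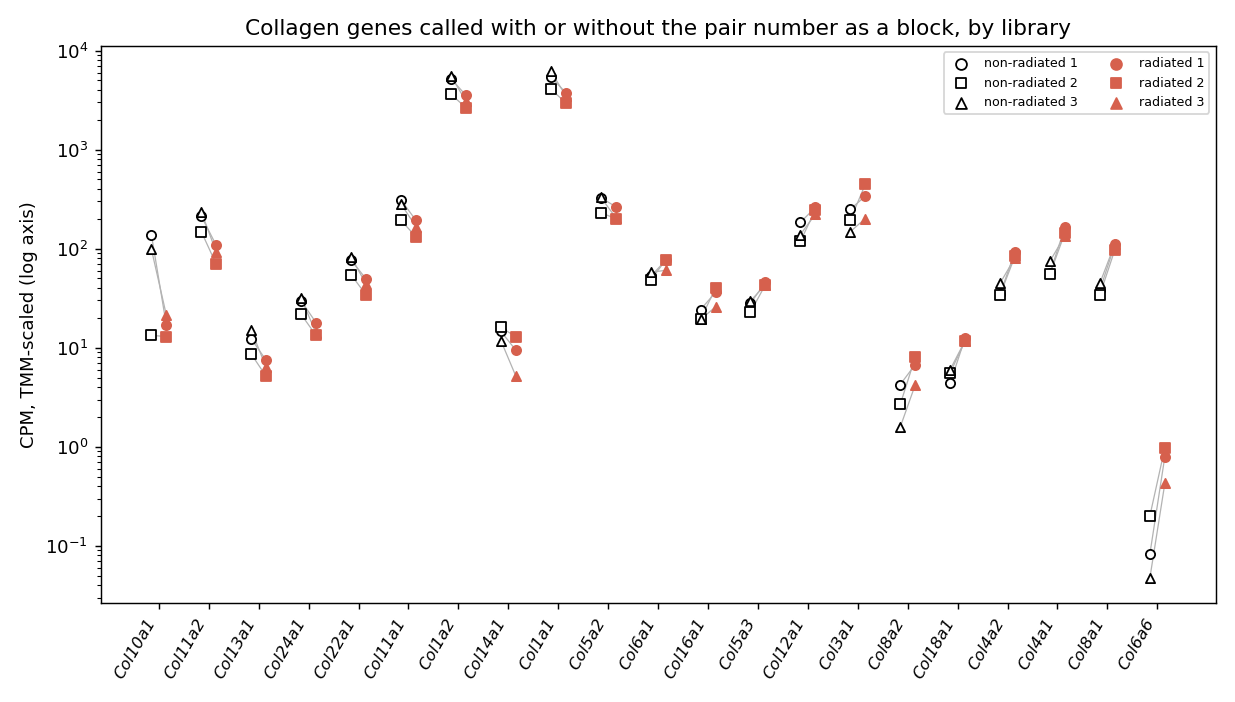
Level of 21 collagen genes in every library (y axis, TMM-scaled CPM on a log axis), ordered by fold change from left to right. Open black symbols are non-radiated and filled red symbols radiated libraries, the symbol shape gives the library number, and grey lines join equal numbers. Library NR2 lies near the radiated libraries for Col10a1, at 13.3 CPM, while Col8a1, Col4a1, Col4a2 and Col18a1 show no overlap.

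Of the 3 network collagens 1 rose. Col8a1 (ENSMUSG00000068196, chromosome 16, 57624258 to 57754737), a short chain made by vessel walls and other mesenchymal tissue, had the smallest p of all collagen genes. It was at 38.5, 34.3 and 44.9 CPM in control femurs and 110.4, 98.0 and 112 CPM in radiated femurs. Each radiated value was above every non-radiated one, and the rise was 2.72-fold (edgeR adjusted p 3.95e-05, log2 fold change 1.44 with SE 0.10), with pair differences of 1.52, 1.52 and 1.32 on the log2 scale. Col8a2, its partner chain, was at 4.25, 2.67 and 1.58 CPM in control femurs and 6.76, 7.98 and 4.21 CPM in radiated femurs. Its groups overlapped slightly, and it was called with the replicate block but not in the group fit (edgeR adjusted p 0.0751, log2 fold change 1.16 with SE 0.34, with the block 0.00649). The adjusted p without a block was 0.0343 with NR1 left out, 0.0379 with R3 left out and 8.7e-05 under library totals alone. With the muscle covariate it was 0.333.

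Col10a1 (ENSMUSG00000039462, chromosome 10, 34389981 to 34397085), the collagen of hypertrophic chondrocytes at the lower face of the growth plate, was at 139, 13.3 and 98.9 CPM in control femurs and 16.9, 13.0 and 21.3 CPM in radiated femurs. Libraries NR1 and NR3 were high, and library NR2 was as low as the radiated libraries. The log2 fold change of -2.30 (SE 0.63) was not called (edgeR adjusted p 0.0587). It was called with the block (-1.88, adjusted p 0.0364), without library NR2 (-2.81, adjusted p 0.000242) and under library totals alone (-2.24, adjusted p 5.3e-21). It was -1.63 (adjusted p 0.318) with the muscle covariate, -1.73 (0.193) with NR1 left out and -1.89 (0.212) with limma-voom. By pair the log2 differences were -3.04, -0.04 and -2.21, so pair 2 showed almost none. The 10 chondrocyte markers were lowest in NR2 among the control femurs too. Their sums in the radiated femurs, 171, 115 and 214 CPM, lay inside the control range, whose low end of 107 CPM was NR2. Those of R1 and R2 lay below NR1 and NR3, at 241 and 207 CPM, and that of R3 lay between these. Of the 10 markers 8 had negative log2 fold changes, with a list median of -0.30. The part of growth plate tissue in the Col10a1 difference was not tested. The class median was 1.16 over 3 genes. Col10a1 overlaps Nt5dc1, and whether counting used the strand is not given in the sources used here.

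Of the 7 tested basement membrane collagens 3 rose and none fell, with a class median of 0.58. Col4a1 (ENSMUSG00000031502, chromosome 8, 11198423 to 11312826), which with Col4a2 forms the type IV collagen of nearly all basement membranes, was at 56.8, 55.7 and 74.9 CPM in control femurs and 166, 145 and 136 CPM in radiated femurs. It rose 2.38-fold (edgeR adjusted p 0.000350, log2 fold change 1.25 with SE 0.12). Col4a2 (ENSMUSG00000031503, chromosome 8, 11312805 to 11449287) was at 34.8, 34.2 and 44.8 CPM in control femurs and 93.3, 84.3 and 81.3 CPM in radiated femurs. The rise was 2.27-fold (edgeR adjusted p 0.000231, log2 fold change 1.18 with SE 0.11). For both genes every radiated library was above every non-radiated one, and all 3 pairs had the same sign, at 1.55, 1.38 and 0.86 for Col4a1 and 1.42, 1.30 and 0.86 for Col4a2.

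Col18a1 (ENSMUSG00000001435, chromosome 10, 77052178 to 77166548), which encodes a proteoglycan of vessel basement membranes and the precursor of endostatin, was at 4.36, 5.59 and 6.02 CPM in control femurs and 12.6, 11.7 and 11.8 CPM in radiated femurs. It rose 2.26-fold with no overlap (edgeR adjusted p 0.000898, log2 fold change 1.17 with SE 0.13). It shares bases with the gene Slc19a1 in the annotation. Its relative Col15a1, at 7.87, 7.31 and 8.16 CPM without radiation and 11.3, 12.4 and 8.78 CPM with it, also showed no overlap but was not called (edgeR adjusted p 0.0689, log2 fold change 0.47 with SE 0.14). The other type IV chains, which serve specialised membranes such as those of the kidney, were at low levels. Col4a5 was at 1.26, 0.759 and 1.32 CPM without radiation and 1.88, 1.35 and 1.86 CPM with it, with no overlap and no call (edgeR adjusted p 0.218, log2 fold change 0.57 with SE 0.25). Col4a6 had a negative log2 fold change of -1.11 (adjusted p 0.177) from 11 to 56 counts per library. Col4a4 had 5 to 17 counts and Col4a3, which did not pass the filter, 4 to 20, too few for a difference to be told from counting error. Col4a4 had a log2 fold change of 0.58 (adjusted p 0.478).

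Cell types that make basement membrane were measured beside these genes. The 10 endothelial markers summed to 309.7 to 343 CPM in the non-radiated and 324 to 344 CPM in the radiated libraries, with no marker called higher and 2 called lower, Tek and Esam (-0.60 and -0.55 on the log2 scale, edgeR adjusted p 0.00325 and 0.00480). With the replicate block Cdh5 was also called, as higher (0.30, adjusted p 0.0438). The 8 adipocyte markers summed to 85.5 to 96.9 CPM in the non-radiated and 179 to 243 CPM in the radiated libraries, with 7 called higher, and the 10 pericyte and smooth muscle markers to 229.6 to 262 CPM in the non-radiated and 244 to 287 CPM in the radiated libraries, with 3 called higher. The latter 3 were Acta2, Tagln and Rgs5, at log2 fold changes of 1.72, 2.40 and 0.34 (edgeR adjusted p 0.000517, 0.000446 and 0.0342). Of the 9 tested genes of that list 6 were not called and 2 had negative fold changes, with a list median of 0.28. With the replicate block 2 were called higher. The part of fat and mural cells in the basement membrane result was not tested. Library R3 had a muscle marker sum of 559 CPM, inside the non-radiated range, and there Col4a1 was 136 and Col8a1 112 CPM, above all non-radiated libraries. With the muscle covariate Col8a1, Col4a1, Col4a2 and Col18a1 had adjusted p of 2.57e-05, 0.000758, 0.000468 and 0.00250. The part of muscle tissue in these differences was not tested.

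**Figure D3:**
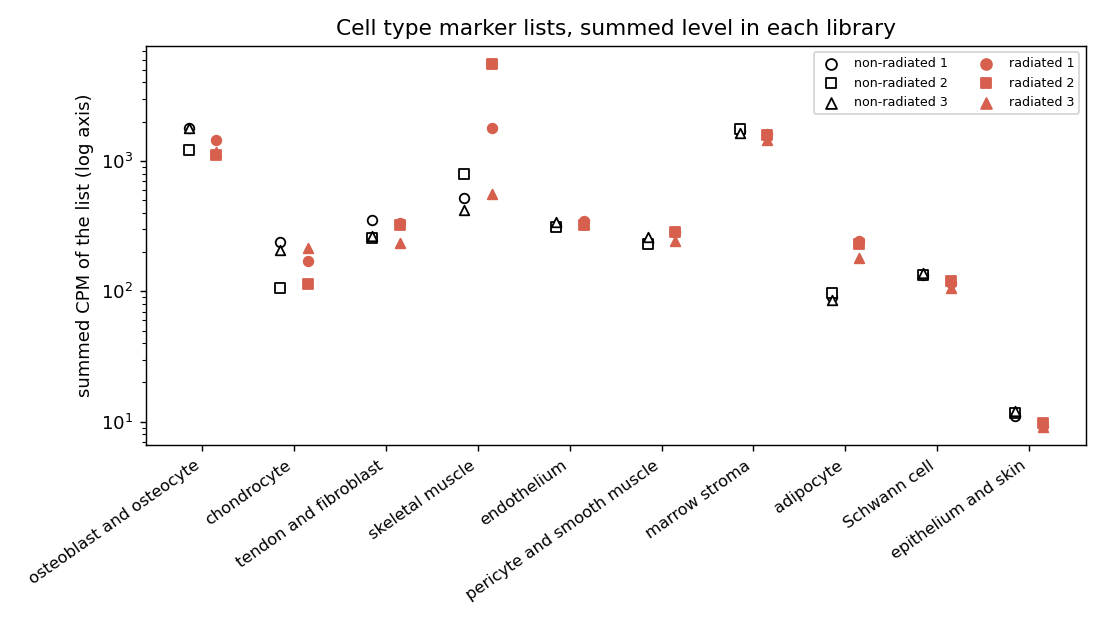
Summed level of 10 cell type marker lists (x axis) in every library (y axis, CPM on a log axis), with open black symbols for non-radiated and filled red symbols for radiated libraries and the shape giving the library number. Adipocyte sums are higher in all 3 radiated libraries (179 to 243 CPM), muscle sums spread widely among the radiated libraries, and endothelial sums overlap.

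Of the 9 fibril-associated collagens 2 rose and 1 fell. Col12a1 (ENSMUSG00000032332, chromosome 9, 79598991 to 79718831), a bridge between fibrils that is abundant in tendon, periosteum and bone surfaces, was at 184, 118 and 139 CPM in control femurs and 261, 247 and 223 CPM in radiated femurs. It rose 1.65-fold with no overlap (edgeR adjusted p 0.0139, log2 fold change 0.72 with SE 0.14), a call that missed the threshold at an adjusted p of 0.0553 with NR3 left out and 0.0573 with R1 left out. Col16a1 (ENSMUSG00000040690, chromosome 4, 130047840 to 130099283), a minor chain of fibroblasts and smooth muscle, was at 24.2, 19.4 and 19.3 CPM in control femurs and 36.2, 39.8 and 25.8 CPM in radiated femurs. Its rise of 1.62-fold (edgeR adjusted p 0.0280, log2 fold change 0.69 with SE 0.16) rested on several libraries, with adjusted p of 0.107 with NR2 left out, 0.0830 with NR3 left out, 0.0994 with R1 left out and 0.0641 with R2 left out. With the muscle covariate it was 0.142.

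Col22a1 (ENSMUSG00000079022, chromosome 15, 71795795 to 72034227), known from the junctions of muscle and tendon and from cartilage, was at 76.6, 54.5 and 82.6 CPM in control femurs and 49.6, 34.2 and 43.9 CPM in radiated femurs. The fall was 1.68-fold with no overlap (edgeR adjusted p 0.0255, log2 fold change -0.75 with SE 0.17), and the adjusted p was 0.0912 with NR1 left out and 0.0758 with NR3 left out, 0.127 with the muscle covariate and 0.0811 under library totals alone. Col14a1, which regulates fibril width, was at 14.6, 16.0 and 11.8 CPM in control femurs and 9.46, 13.0 and 5.18 CPM in radiated femurs, with overlap between library R2 and library NR3. It was called lower with the replicate block but not in the group fit (edgeR adjusted p 0.233, log2 fold change -0.62 with SE 0.27, with the block 0.0277). With the muscle covariate the log2 fold change was -1.28 (adjusted p 0.00134), with R2 left out -0.95 (0.0428) and with R3 left out -0.33 (0.320).

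The type IX chains, which coat the type II fibrils of cartilage, were spread widely among the non-radiated libraries. Col9a1 was at 45.4, 9.58 and 36.8 CPM in control femurs and 18.3, 13.1 and 25.5 CPM in radiated femurs, and library NR2 was lowest of all (edgeR adjusted p 0.425, log2 fold change -0.71 with SE 0.45). Without that library its adjusted p was 0.0352 (log2 fold change -1.13). Of the non-radiated libraries, Col9a2 and Col9a3 were also lowest in library NR2, at 4.47 and 7.39 CPM, with log2 fold changes of -0.19 and -0.15. Col19a1 and Col20a1 had means of 1.09 and 4.08 CPM in the non-radiated group, with log2 fold changes of 0.18 and 0.09. The class median was -0.15 and changed sign between alternatives, from -0.41 to 0.08.

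Of the 11 tested among the remaining collagens 2 rose and 1 fell, with a median of 0.43. The beaded filament chains of type VI, which surround fat, muscle and stromal cells, all had positive fold changes. Col6a1 (ENSMUSG00000001119, chromosome 10, 76708792 to 76726168) was at 52.6, 48.0 and 57.7 CPM in control femurs and 76.0, 76.7 and 60.5 CPM in radiated femurs. It rose 1.35-fold with no overlap (edgeR adjusted p 0.0342, log2 fold change 0.43 with SE 0.10), and the adjusted p was 0.105 with NR1 left out, 0.132 with NR2 left out, 0.125 with R1 left out and 0.0852 with R2 left out. Under library totals alone it was 0.0659, and with the muscle covariate 0.176. Col6a2, at 31.3, 27.7 and 36.9 CPM without radiation and 43.2, 51.5 and 37.5 CPM with it, and Col6a3, at 124, 91.7 and 123 CPM without radiation and 149.8, 156 and 126 CPM with it, did not overlap between groups and were not called (log2 fold changes 0.46 and 0.35, adjusted p 0.0661 and 0.117). Pair 3 contributed little for each of the 3 chains, at log2 differences of 0.07, 0.03 and 0.04.

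Col6a6 (ENSMUSG00000043719, chromosome 9, 105687809 to 105828160), a type VI chain of low abundance here, had 3, 5 and 2 counts in control femurs and 30, 52 and 19 counts in radiated femurs. It had the largest fitted change among collagen genes (edgeR adjusted p 0.0113, log2 fold change 2.86 with SE 0.53), from 0.110 ± 0.0798 to 0.731 ± 0.279 CPM (mean ± SD, n = 3 each). The radiated libraries all lay higher, and the adjusted p was 0.0583 with NR1 left out. Its highest values were in libraries R2 and R1, the libraries with most muscle RNA, and with the muscle covariate the adjusted p was 0.0434. The neighbouring Col6a5 and Col6a4 were not called (0.63 and 0.92, adjusted p 0.320 and 0.242).

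Col13a1 (ENSMUSG00000058806, chromosome 10, 61838236 to 61979108), a membrane-spanning collagen of cell contacts that bone cells also make, was at 12.3, 8.62 and 15.01 CPM in control femurs and 7.45, 5.13 and 6.34 CPM in radiated femurs. It fell 1.91-fold with no overlap (edgeR adjusted p 0.0245, log2 fold change -0.94 with SE 0.20), and the adjusted p was 0.0788 with NR1 left out, 0.0672 with NR3 left out, 0.0544 with R2 left out and 0.0535 with R3 left out. With the muscle covariate it was 0.141. The other membrane-bound chains Col23a1 and Col25a1 were not called (log2 fold changes 0.51 and -0.10), nor were Col28a1 (0.34) and Col7a1 (0.08), the collagen of the fibrils that anchor skin. Col17a1, a hemidesmosome collagen of skin, and Col26a1 did not pass the filter, with 1 to 8 and 2 to 17 counts per library. Of 8 markers of epithelium and skin, Krt14 and Krt1 had no count in any library and 1 of the 5 tested, Trp63, rose.

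Several collagen genes sit next to one another. Col4a1 and Col4a2 stand head to head on chromosome 8, their annotated ends overlapping by 22 bases, and both rose by similar amounts. Col4a6 and Col4a5 on chromosome X have the same arrangement with 1308 bases between them, but fold changes of opposite sign (-1.11 and 0.57, neither called). Col3a1 and Col5a2 on chromosome 1 lie tail to tail, 24614 bases apart. Col3a1 had a positive and Col5a2 a negative log2 fold change (0.74 and -0.41), and both were called in those directions with the replicate block.

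Ratios of counts within a library do not depend on how libraries are scaled, and 6 of them were compared. The log2 ratio of Col1a1 to Col1a2 was 0.06, 0.17 and 0.15 in control femurs and 0.09, 0.17 and 0.19 in radiated femurs. The values overlapped (exact permutation p 0.6, adjusted 0.8), with group means of 0.13 and 0.15. For Col4a1 to Col4a2 the ratio was 0.71, 0.70 and 0.74 in control femurs and 0.83, 0.78 and 0.74 in radiated femurs. It moved by 0.07 between groups (exact permutation p 0.2, adjusted 0.6), much less than the change of either gene. Col6a1 to Col6a2 differed by -0.04 (exact permutation p 0.7, adjusted 0.8).

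The ratio of Col3a1 to Col1a1 was -4.44, -4.39 and -5.38 in control femurs and -3.47, -2.74 and -4.12 in radiated femurs. It was the single ratio of the 6 without overlap, higher after radiation by 1.29 and in all 3 pairs (exact permutation p 0.1, adjusted 0.6). The smallest p that 3 against 3 can give is 0.1. Within each group the ratio had the same order of libraries as the muscle marker sums. The part of muscle tissue in this ratio was not tested. For Col10a1 to Col2a1 the log2 ratio was -0.08, -2.46 and -0.32 in control femurs and -2.58, -2.45 and -2.23 in radiated femurs. Libraries NR1 and NR3 were near 0, and the remaining 4 libraries, library NR2 among them, were between -2.58 and -2.23 (exact permutation p 0.3, adjusted 0.6). Col9a1 to Col2a1 was lowest in library NR2, at -2.93, and showed no group difference beyond the spread (exact permutation p 0.8, adjusted 0.8).

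**Figure D4:**
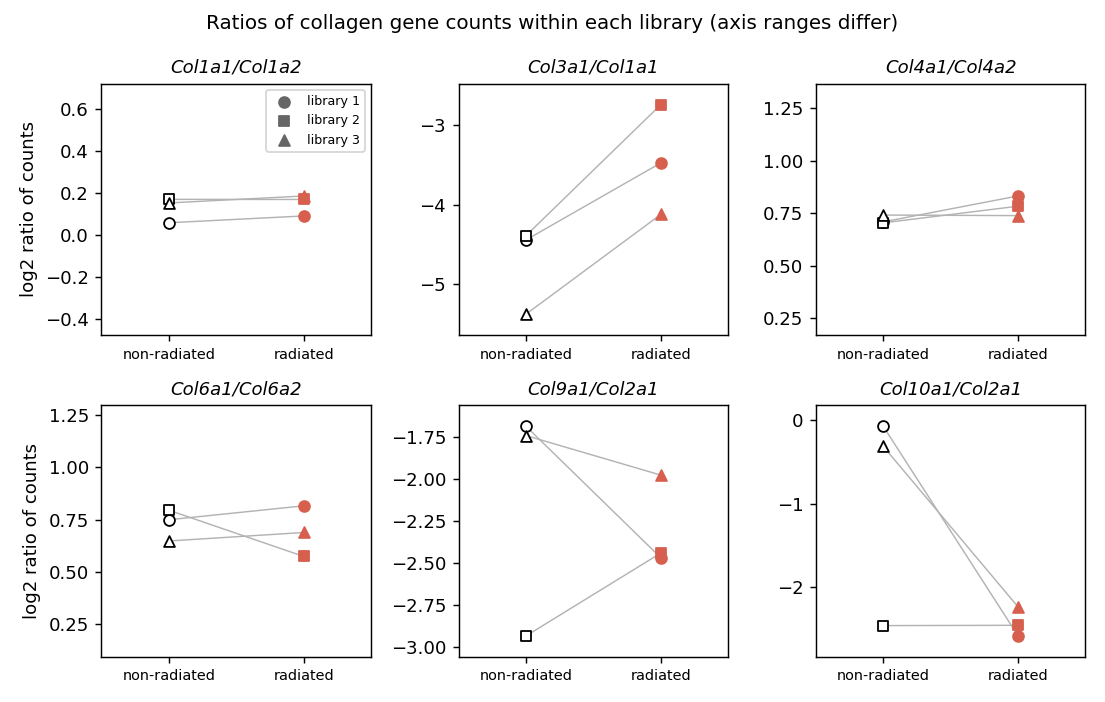
Log2 ratio of the counts of 2 collagen genes (y axis, a separate range in each panel) in the non-radiated and radiated libraries (x axis), with symbol shape for the library number and lines joining equal numbers. The Col3a1/Col1a1 ratio is higher in the radiated library of all 3 pairs, and the Col10a1/Col2a1 ratio of library NR2 lies with the radiated libraries.

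To show the sequence in front of genes called in opposite directions, windows of 250 bases from the promoter table (RefSeq, build GRCm38.p6) are given. Each lies before the start used in that table, which can differ from the gene start given above. The Col11a2 window ends at 34039137, where the gene start above is 34039437. Shown are the 2 called genes with the largest falls and the 2 with the largest rises, among those whose window touches no annotated exon. Capitals mark, on either strand, the box named CCAAT, the GC box GGGCGG bound by Sp1, the Runx core element TGTGGT, and the TATA box searched as TATAAA, and no marked motif shares bases with another in these windows.
Col11a2, chr17:34038888-34039137 (plus strand): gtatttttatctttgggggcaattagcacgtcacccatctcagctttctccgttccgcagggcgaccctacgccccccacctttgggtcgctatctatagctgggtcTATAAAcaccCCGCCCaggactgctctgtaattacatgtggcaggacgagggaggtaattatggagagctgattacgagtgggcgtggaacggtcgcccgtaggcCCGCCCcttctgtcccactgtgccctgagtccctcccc
Col13a1, chr10:61979109-61979358 (minus strand): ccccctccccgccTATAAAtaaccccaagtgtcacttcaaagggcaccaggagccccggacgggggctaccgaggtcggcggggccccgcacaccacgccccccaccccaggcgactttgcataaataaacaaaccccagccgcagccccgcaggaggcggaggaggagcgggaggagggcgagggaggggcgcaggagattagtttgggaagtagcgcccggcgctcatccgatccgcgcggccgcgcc
Col8a1, chr16:57754738-57754987 (minus strand): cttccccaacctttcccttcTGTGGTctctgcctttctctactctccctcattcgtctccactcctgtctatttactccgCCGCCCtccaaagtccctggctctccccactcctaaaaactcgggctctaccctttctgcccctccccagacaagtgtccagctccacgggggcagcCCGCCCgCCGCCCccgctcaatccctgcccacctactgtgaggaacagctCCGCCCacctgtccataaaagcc
Col5a3, chr9:20815068-20815317 (minus strand): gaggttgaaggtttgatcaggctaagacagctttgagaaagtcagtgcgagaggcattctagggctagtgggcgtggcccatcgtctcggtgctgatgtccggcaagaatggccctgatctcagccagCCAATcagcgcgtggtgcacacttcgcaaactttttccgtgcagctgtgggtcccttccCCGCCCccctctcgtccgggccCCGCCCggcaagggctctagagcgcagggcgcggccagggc
Both printed windows of genes that fell hold TATAAA, at different distances from the start. It lies near the middle of the Col11a2 window and among the first bases printed for Col13a1. Both printed windows of genes that rose hold GGGCGG, which the Col11a2 window also has. The table gave 38 windows for 35 collagen genes. TATAAA was in 5 of these 38, or 13.2%, against 12.4% of all 32851 windows. It was in 2 of 3 windows of called genes that fell, the 2 printed ones, and 0 of 9 of those that rose. These windows cover 3 of the 5 genes that fell and 8 of the 9 that rose, Col18a1 having 2 windows. GGGCGG was in 57.9% of collagen windows and 32.7% of all windows, CCAAT in 34.2% and 33.8%, and TGTGGT in 7.89% and 14.0%. These are matches of letters and say nothing about binding.

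The genes that process, bind and degrade collagen were taken as 7 lists. In these lists of 63 genes, 61 were tested, and 4 were called lower and 4 higher (8 of 61, where 7.8% of all tested genes were called). Of 16 enzymes that modify proline and lysine in new chains, Colgalt1 and P4ha3 rose and P3h2 fell. Colgalt1, which adds galactose to hydroxylysine, went from 98.0 ± 3.57 to 123 ± 7.07 CPM (edgeR adjusted p 0.0106, log2 fold change 0.32 with SE 0.06). P3h2, a prolyl 3-hydroxylase that acts on type IV collagen among others, went from 9.12 ± 0.373 to 6.55 ± 0.404 CPM (edgeR adjusted p 0.0235, log2 fold change -0.48 with SE 0.10). P4ha3, a rarer subunit of prolyl 4-hydroxylase, went from 0.791 ± 0.235 to 1.66 ± 0.290 CPM (edgeR adjusted p 0.0402, log2 fold change 1.04 with SE 0.26). With the replicate block its adjusted p was 0.0551. Plod2 was called lower with the block but not in the group fit (with the block -0.45, adjusted p 0.00666). None of the 8 tested genes of folding and export was called, among them Serpinh1, the collagen chaperone HSP47 (-0.05, adjusted p 0.905), and Sparc (-0.29, adjusted p 0.365).

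Of 7 tested genes of propeptide cleavage Tll2, a tolloid protease, rose from 0.110 ± 0.0717 to 0.772 ± 0.198 CPM (edgeR adjusted p 0.00672, log2 fold change 2.84 with SE 0.47). The main enzyme of that step, Bmp1, did not pass (0.11, adjusted p 0.695). No cross-linking gene was called, and with the block Loxl2 and Loxl3 were called higher and Loxl4 lower (log2 fold changes 0.60, 0.41 and -0.66, adjusted p 0.0155, 0.0298 and 0.0269). Lox itself was at a log2 fold change of 0.06 (adjusted p 0.832). With the block the lists had 10 genes lower and 5 higher.

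Among 10 collagen receptors Gp6, the platelet receptor for collagen, was at 18.6, 18.6 and 15.1 CPM without radiation and 5.86, 6.50 and 4.50 CPM with it. It fell with no overlap between groups (edgeR adjusted p 0.000274, log2 fold change -1.63 with SE 0.15). Itga2, the integrin chain that platelets and other cells use to bind collagen, also fell, from 34.2 ± 3.93 to 20.7 ± 1.31 CPM (edgeR adjusted p 0.00194, log2 fold change -0.73 with SE 0.09). Over the 10 receptors 6 fold changes were negative and 4 positive. Receptors of stromal cells, Ddr2, Itga11 and Mrc2, had log2 fold changes of 0.14, 0.25 and 0.28 and were not called. Itga10, at -0.50, was not called either (edgeR adjusted p 0.0583), but was called lower with the replicate block (adjusted p 0.00891). No receptor was called higher with the block. Of 8 genes of collagen degradation Mmp2, the gelatinase that also cleaves type IV collagen, was at 58.7, 44.8 and 48.7 CPM without radiation and 110.3, 98.1 and 91.6 CPM with it. It rose with no overlap (edgeR adjusted p 0.000679, log2 fold change 0.98 with SE 0.10). Mmp13, Mmp9 and Ctsk were not called (0.11, -0.06 and 0.11). Mmp8 and Fap were called lower with the replicate block but not in the group fit (with the block -0.37 and -0.27, adjusted p 0.0230 and 0.0357). Over the alternatives the largest adjusted p was 0.00252 for Gp6, 0.00599 for Mmp2 and 0.0230 for Tll2, whereas it passed 0.05 for Itga2 (0.156), Colgalt1 (0.166), P4ha3 (0.172), P3h2 (0.704) and Runx2 (0.640).

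Of 7 transcription factors of collagen-making cells Runx2, which drives osteoblast and late chondrocyte genes, fell from 87.5 ± 4.97 to 63.1 ± 5.02 CPM (edgeR adjusted p 0.00396, log2 fold change -0.47 with SE 0.07), and Sp7, which acts after it, was called with the block but not in the group fit (adjusted p 0.0117 and 0.0814). Chondrocyte markers summed to 107 to 241 CPM in the non-radiated and 115 to 214 CPM in the radiated libraries. Of these markers 1 was called lower, Cytl1, and 1 higher, Comp (-1.22 and 0.77, edgeR adjusted p 0.0207 and 0.00705). Of 10 tendon and fibroblast markers 8 were tested, and Fmod and Thbs4 rose (1.15 and 2.02, edgeR adjusted p 0.0105 and 0.0165) while Pdgfra fell (-0.63, adjusted p 0.0112). Marrow stroma and Schwann cell lists had medians of -0.21 and -0.25. In the former Lepr was called lower and Esm1 higher (-0.48 and 0.37, edgeR adjusted p 0.00381 and 0.0172). In the latter Mbp was called lower (-0.25, edgeR adjusted p 0.0363), but not with the replicate block (0.0504). How far these cell types account for the collagen differences was not tested.

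**Figure D5:**
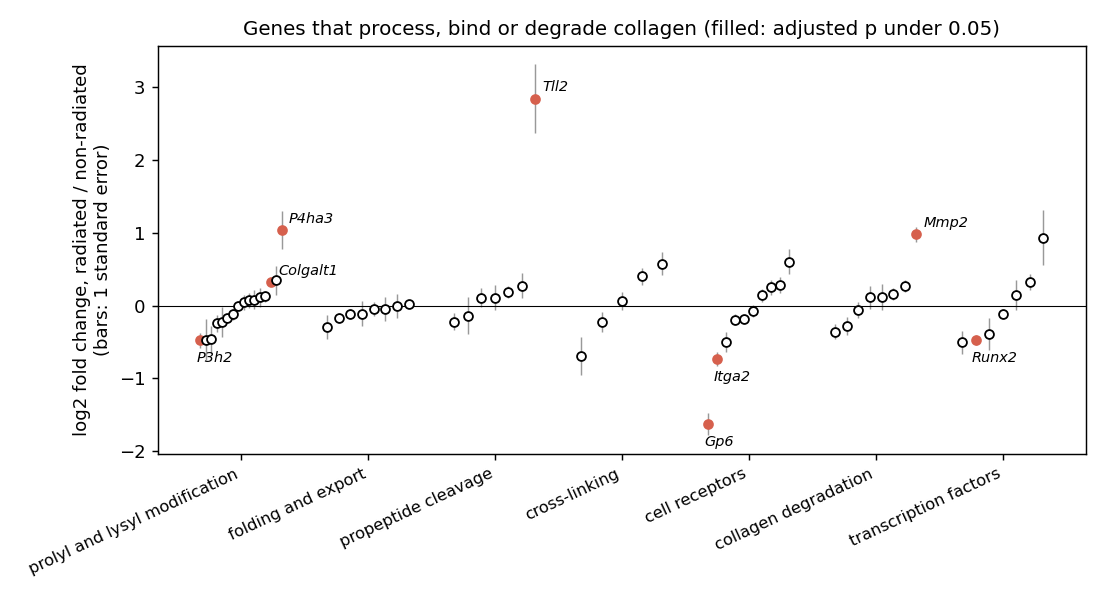
Log2 fold change (y axis, radiated over non-radiated, bars 1 standard error) of 61 tested genes in 7 lists of collagen processing, binding, degradation and transcription (x axis). Filled red points had an adjusted p under 0.05 and are named: Tll2, P4ha3, Colgalt1 and Mmp2 lie above 0, and P3h2, Itga2, Gp6 and Runx2 below.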

How the data were processed

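RNA-seq gene counts of 6 mouse femur pieces were used. Per the labels' protocols, libraries were made with a stranded mRNA kit, and the submitters' processing notes name STAR 2.5.2b, Subread, featureCounts and build mm10 without parameters. As deposited, the authors' values are raw counts, whole numbers for each gene. The deposited RPKM values (reads scaled by gene length and library size) were not used. Of the 44 collagen genes 41 have the same start and end in GENCODE M21 (GRCm38), and the table's gene length equals the merged exons there for 31.

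Counts were tested with edgeR 4.0.16 (R 4.3.3) after filterByExpr (minimum count 10, minimum total 15) and TMM scaling, with the group as the only term and Benjamini-Hochberg adjustment over the 18757 genes that passed. Standard errors were taken as the log2 fold change over the root of F. The fit was also run on simulated counts of independent libraries, with no pairing and no library set apart. That run does not cover these features of the data. Replicates differed beyond sampling noise (chi-square per degree of freedom 17.9 to 604). Libraries of equal number had correlated deviations across genes (0.16, 0.26 and 0.18, against -0.16 to -0.01 for unequal numbers). The numbers were therefore taken as pairs, a hint from the data that the labels do not state. Deviations from a group mean cancel within the group, so the values for unequal numbers depend in part on those for equal numbers. NR2 and R2 each had the highest muscle and the lowest chondrocyte marker sum of their group. Whether tissue content gives these correlations was not tested. Alternatives were the replicate block, other scalings and filters, DESeq2 1.42.0, limma-voom (limma 3.58.1), a muscle covariate and leaving out each library. Values in every library are given for members called with or without the block, the 6 highest per kb and those in ratios. Genes called in the group fit are named for the lists of collagen processing, binding, degradation and transcription. Genes outside that rule, among them Col15a1, Col4a5, Col5a1, Col27a1, Col6a3, Bmp1, Lox and the marker genes, were named after their values were seen. The members and lists were chosen with earlier results of these data known. All 157 list entries were found, 6 of them through their gene ID.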

Additional observations from a re-analysis of the deposited data

How the results depend on the processing

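The number of collagen genes called lower was 5 in the group fit, 10 with the replicate block, 9 with no filter on low counts and 3 with the muscle covariate, and it ran from 2 to 10 when single libraries were left out: 2 with NR1 or NR3 left out, 10 with NR2 left out and 3 with R3 left out. The number called higher was 9, 14 with no filter, and 6 to 13 over the fits without 1 library. Of all tested genes, 7.8% were called in the group fit and 8.9% with the block. The share was 4.22% with NR2 left out, 3.99% with R1 left out and 5.33% under library totals alone. It is not given for the other settings, so their counts cannot be set against all genes. Fewer samples enter the fits without 1 library, and the cause of these changes was not tested for any setting. Library totals alone moved the median of all genes to 0.19 and called 4 collagen genes lower and 10 higher. For the 24 genes that the naming rule selected, 294 values under alternatives kept direction and side of the threshold, 31 lost a call, 33 gained one and 1 changed sign, that of Col2a1 with the muscle covariate (0.0027). The block changed no other call of these genes than those named. With single libraries left out, the difference between groups in the log2 ratio ran from -0.013 to 0.051 for Col1a1/Col1a2, from -0.099 to 0.021 for Col6a1/Col6a2 and from -0.58 to 0.042 for Col9a1/Col2a1, so these have no stable sign. It stayed positive for Col3a1/Col1a1 (0.94 to 1.63) and Col4a1/Col4a2 (0.04 to 0.09) and negative for Col10a1/Col2a1 (-2.23 to -1.04). With the block, sign flips within 3 pairs cannot give a p under 0.25. Depth limits Col4a3, Col17a1 and Col26a1, which had few counts in every library.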
